A study of Homo sapiens with 15 samples.

Results

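The tetraspanins were examined on 15 two-colour microarrays. The cells were MDA-MB231, a human line of triple-negative breast cancer. Members were the gene probes whose symbol starts with TSPAN or is CD9, CD37, CD53, CD63, CD81, CD82, CD151, UPK1A, UPK1B, PRPH2 or ROM1, which gave 44 probes for 32 genes of the 30989 genes on the arrays. Among the members 22 had 1 probe, 8 had 2 and 2 had 3, and TSPAN11 was the only protein-coding member without a probe. The arrays fell into 3 groups of 5. One group carried shCtBP2 cells, stably transfected with a short hairpin RNA against CTBP2 and selected with puromycin, and whether they were kept as a pool or as clones is not given in the sources used here. The other groups carried cells collected 24 h after treatment with HIPP or with P4, inhibitors of the CtBP dehydrogenases. HIPP has a hydroxyimino group and P4 a hydrazone group on the same phenylpropanoate backbone, and no dose is stated for the arrays of either, so their values are set side by side and not tested against each other. Every array paired the treated RNA, labelled with Cy5, with control RNA labelled with Cy3, and the dyes were never exchanged. The labels name untreated MDA-MB231 cells as the control on all arrays, whereas the study describes a scrambled hairpin as the control of shCtBP2 cells.

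Tetraspanins are small membrane proteins that cross the membrane in 4 segments and carry a short and a long extracellular loop. They bind integrins, immunoglobulin-like proteins, metalloproteases and one another in the plane of the membrane, and they are abundant in extracellular vesicles. TSPAN8 is known from gastrointestinal and other carcinomas as a vesicle tetraspanin linked to motility, and CD82 was first described as a suppressor of metastasis. CtBP2 is a transcriptional corepressor that binds NADH and is brought to promoters by DNA-binding partners such as ZEB1.

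The probes of TSPAN8, TSPAN2 and CD9 are shown because the ratios of these genes rest on 1 or 2 short sequences each. Positions are on build hg17, and each 60-base probe printed here reads without a stop codon in 1 of its 3 forward frames. The TSPAN8 probe lies on chr12:69812782-69812841, minus strand. The TSPAN2 probe is annotated from chr1:115308110-115312243, minus strand, which is a span of 4134 bases and therefore holds an intron, and the CD9 probe spans 1802 bases at chr12:6212886-6214687, plus strand.
TSPAN8: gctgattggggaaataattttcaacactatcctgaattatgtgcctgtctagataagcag
TSPAN2: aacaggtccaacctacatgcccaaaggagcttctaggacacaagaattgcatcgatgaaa
CD9: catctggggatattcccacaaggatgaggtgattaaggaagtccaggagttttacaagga

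The 250 bases before the outermost annotated start of TSPAN8, TSPAN2 and CD82 are printed because these genes were lower with both inhibitors while only TSPAN8 was called lower in shCtBP2 cells. They come from the RefSeq promoter table on GRCh38.p14, which holds 24 of the 32 members. Capitals mark the E-box CAGGTG, which ZEB1 can bind, the motif CACCC and the GC box GGGCGG, each searched on both strands. TSPAN8 lies at chr12:71158000-71158249 on the minus strand, TSPAN2 at chr1:115089504-115089753 on the minus strand and CD82 at chr11:44565413-44565662 on the plus strand.
TSPAN8: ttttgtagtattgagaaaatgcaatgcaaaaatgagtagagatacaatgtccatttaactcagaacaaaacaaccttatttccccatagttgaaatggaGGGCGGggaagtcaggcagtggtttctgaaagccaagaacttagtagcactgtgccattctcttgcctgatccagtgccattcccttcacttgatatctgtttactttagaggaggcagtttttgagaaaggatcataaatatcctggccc
TSPAN2: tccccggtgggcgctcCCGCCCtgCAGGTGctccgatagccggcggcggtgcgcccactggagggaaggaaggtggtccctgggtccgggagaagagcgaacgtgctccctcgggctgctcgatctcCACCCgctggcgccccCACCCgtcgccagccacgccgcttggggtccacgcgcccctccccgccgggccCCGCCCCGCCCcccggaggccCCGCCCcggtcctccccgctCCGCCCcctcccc
CD82: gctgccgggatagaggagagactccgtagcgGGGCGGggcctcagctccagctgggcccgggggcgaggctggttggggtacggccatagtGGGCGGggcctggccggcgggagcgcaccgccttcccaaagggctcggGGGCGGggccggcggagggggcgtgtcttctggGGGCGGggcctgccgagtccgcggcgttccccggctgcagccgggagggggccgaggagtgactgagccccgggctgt
The TSPAN8 window was 40.8% G and C, those of TSPAN2 and CD82 were 79.2% and 77.2%, and the median of all 35116 windows of this length was 58%. TSPAN2 held 1 E-box, 2 CACCC motifs and 5 GC boxes, 2 of which overlap by 1 base, whereas TSPAN8 held 1 GC box alone and CD82 held 4. Of all windows, 17.5% held the E-box, 54.7% held CACCC and 42.6% held the GC box. These matches describe the letters of the windows, and no binding was measured here.

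Before the members' ratios, the arrays were checked against their labels. CTBP2 had log2 ratios (treated over control) from −0.59 to −0.29 on the 5 shCtBP2 arrays. The mean was −0.41 ± 0.11 (SD, n = 5), or 75.4% of control, with a limma adjusted p of 0.0595. The targeted transcript was thus lower on every array of shCtBP2 cells and missed the adjusted threshold. By real-time PCR the study reports a larger decrease of this mRNA against scrambled cells, and by western blot less of the protein. With HIPP, CTBP2 was higher on 5 of 5 arrays (0.57 ± 0.36, limma adjusted p = 0.00256). With P4 it was 0.17 ± 0.35 (limma adjusted p = 0.344), and its probes had means of 0.53 and −0.19. A probe counts as above background where the scanner software marks it well above background. VIM, CD44, AXL, ZEB1, MSN, SPARC and KRT18, chosen as markers of MDA-MB231, were above background on 15 of 15 arrays in both channels, while CDH1, PGR and the leukocyte gene PTPRC were so on 0. Several genes listed as low in these cells or as markers of other cell types did give signal, with EPCAM, CD14 and UPK2 above background on 15 arrays and ESR1 in the treated channel on 12. Single probes of such genes can also bind other transcripts, and their part in any result was not tested. The log2 ratios of all genes correlated least between P4 replicates 1 and 3 (r = 0.012), and the highest correlation within a treatment was 0.755.

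Of the 32 members, 21 were above background on all 15 arrays in both channels. They include the widely expressed CD9, CD63, CD81, CD82 and CD151, all 6 members of the TspanC8 group that escorts the protease ADAM10, and the eye genes ROM1 and TSPAN12. CD37 and CD53, which mark leukocytes, PRPH2, a photoreceptor protein, UPK1B, a uroplakin of the bladder lining, TSPAN16 and TSPAN18 were above background on 0 of 15 arrays in either channel. No ratio is given for these 6 genes. TSPAN7, TSPAN19, TSPAN32 and UPK1A lay between, and TSPAN8 was above background on 15 arrays in the control channel and on 13 in the treated channel.

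A gene was called where its log2 ratio differed from 0 at a limma adjusted p under 0.05 and its fold change reached the threshold the study set for that treatment, which was 1.5-fold for shCtBP2, 2.5-fold for HIPP and 1.8-fold for P4. In shCtBP2 cells, 4 of 29 members tested were called (13.8%), against 6.57% of all genes. With HIPP, 2 of 30 were called, against 7.04% of all genes, and with P4 6 of 27 were called (22.2%), against 8.46%. The median log2 ratio of the members tested was 0.03, 0.15 and 0.03 for shCtBP2, HIPP and P4, beside 0.04, 0.08 and 0.11 over all genes tested. Over the members above background in a channel the medians were 0.0035, 0.06 and −0.08, beside 0.03, −0.0070 and 0.04 over all such genes. The calls in shCtBP2 cells were 1 lower (TSPAN8) and 3 higher (TSPAN7, TSPAN19 and TSPAN32), where 3.23% of all genes were called lower and 3.35% higher. Both HIPP calls were lower (TSPAN2 and TSPAN8), beside 3.61% of all genes lower and 3.43% higher. The P4 calls were 3 lower (TSPAN2, CD9 and CD82) and 3 higher (TSPAN7, TSPAN19 and UPK1A), beside 4.17% and 4.29%. Among members above background in a channel, 4 of 23, 2 of 23 and 5 of 20 tested were called, beside 7.86%, 8.51% and 10.2% of such genes tested. In shCtBP2 cells TSPAN7 and TSPAN32 entered this set through the treated channel alone, where they were higher, so there the filter and the count are not independent. At the adjusted p alone, 5 of 29 members passed in shCtBP2 cells (4 higher and 1 lower, beside 6.59% and 6.95% of all genes), 16 of 30 with HIPP (7 higher and 9 lower, beside 24.9% and 23.9%, counting UPK1B as higher and TSPAN18 as lower, which were not above background on any array) and 11 of 27 with P4 (5 higher and 6 lower, beside 17.1% and 14.9%).

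**Figure D1:**
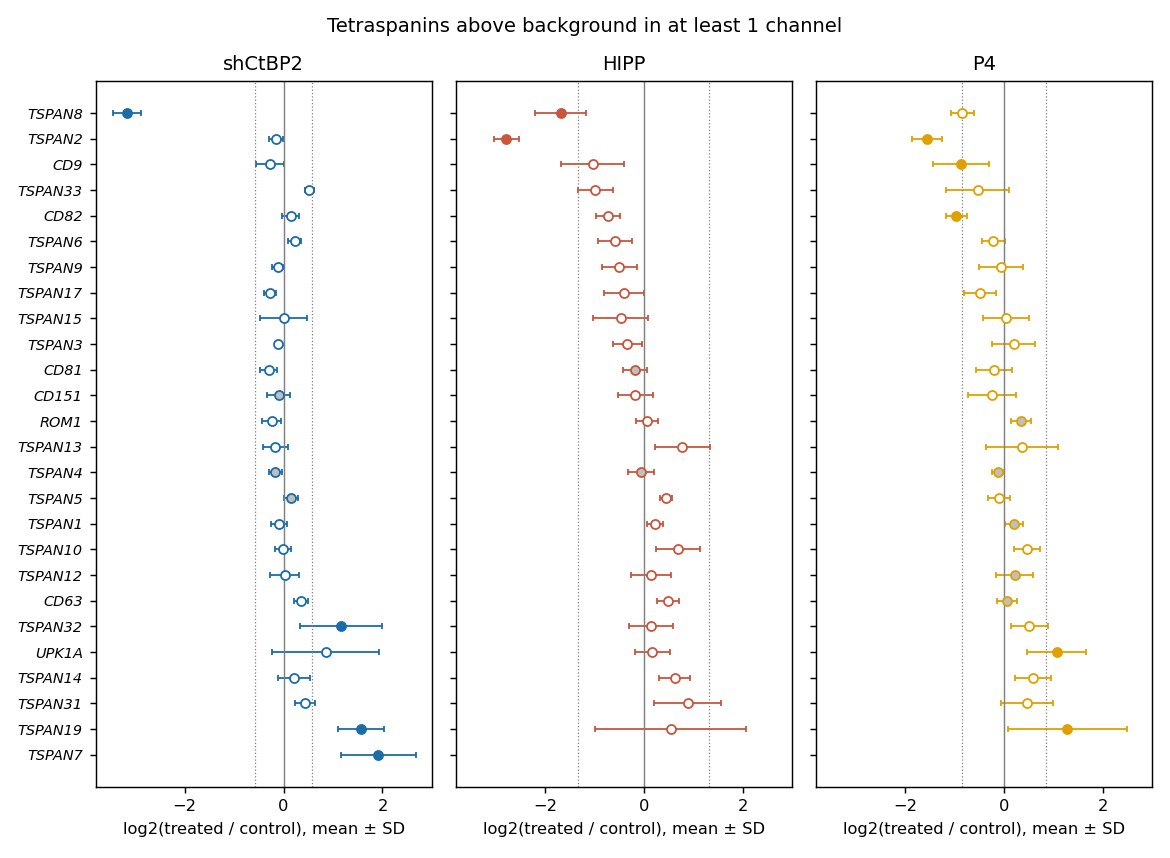
Mean log2 ratio of treated over control for each tetraspanin above background in at least 1 channel, with bars for the SD of 5 arrays, in shCtBP2, HIPP and P4 cells. Filled points were called, open points were tested and not called, grey points were removed by the filter on low variability, and dotted lines mark the fold-change threshold of the treatment. TSPAN8 lies at −3.16 in shCtBP2 cells and TSPAN2 at −2.78 with HIPP, and the points of TSPAN7 and TSPAN32 in shCtBP2 cells have a control channel that was not above background.

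TSPAN8 was the only member whose ratio was negative on all 15 arrays, as were 3.83% of the genes tested in all treatments. In shCtBP2 cells its log2 ratios were −3.01, −3.10, −3.24, −2.86 and −3.60 on replicates 1 to 5. With HIPP they were −1.59, −2.0, −1.39, −1.07 and −2.38, and with P4 −1.17, −0.81, −0.61, −0.95 and −0.67. The shCtBP2 values did not overlap with those of either inhibitor, while the HIPP and P4 values overlapped at the weakest HIPP array. The means were −3.16 ± 0.28, −1.68 ± 0.51 and −0.84 ± 0.23 (SD, n = 5 each), or 11.2%, 31.1% and 55.8% of control, with limma adjusted p of 1.61e-08, 7.67e-07 and 0.00117. The P4 mean corresponds to a 1.79-fold decrease and therefore fell just short of its threshold (without P4 replicates 2, 3 or 5 it was −0.85, −0.90 or −0.89 and was called), and with slide as a fixed block its adjusted p was 0.136. The study itself counts TSPAN8 among the genes changed in common by shCtBP2, HIPP and P4, and reports its decrease by real-time PCR as well.

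The TSPAN8 probe was of middling brightness in the control channel and dim in treated shCtBP2 cells. The TSPAN8 control signal ranged from 93.7 to 237 units over all arrays, where the median gene gave 91.2, and the treated signal in shCtBP2 cells was 9.07 to 15.9 units and above background on 3 of 5 arrays. Correcting the scanned signals by normexp with an offset of 50 and by loess, which adds the offset to both channels and so shrinks the ratios of dim probes, gave −0.98, −0.57 and −0.46 for shCtBP2, HIPP and P4 (adjusted p 0.00147, 0.00915 and 0.0358). The direction held, and HIPP then missed its fold-change threshold.

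**Figure D2:**
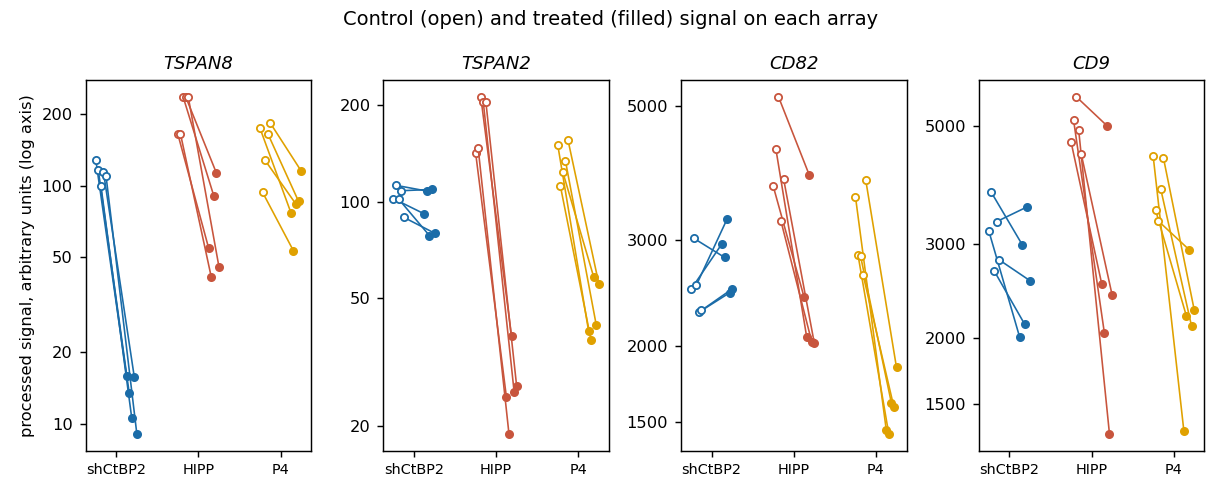
Processed signal of TSPAN8, TSPAN2, CD82 and CD9 on a log axis (arbitrary units), with an open point for the control channel and a filled point for the treated channel of each array joined by a line. In shCtBP2 cells TSPAN8 drops from 100.1 to 129 units in the control channel to 9.07 to 15.9 units in the treated channel, while TSPAN2 stays near its control level.

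The difference between the hairpin and each inhibitor was then tested in the same fit. TSPAN8 was lower in shCtBP2 than in HIPP cells by a log2 difference of −1.48 (95% confidence interval −1.96 to −1.0, adjusted p = 0.000187), and on the slide that held arrays of both the difference was −1.34. Against P4 it was −2.32 (−2.80 to −1.84, adjusted p = 2.04e-05). With normexp and loess the differences were −0.41 and −0.53 and no longer passed (adjusted p = 0.215 and 0.120), and with slide as a fixed block the difference from P4 was −2.33 (adjusted p = 0.0591). No slide held both shCtBP2 and P4 arrays.

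TSPAN2, a tetraspanin studied mainly in oligodendrocytes and smooth muscle, was near its control level in shCtBP2 cells and lower with both inhibitors. Its ratios in shCtBP2 cells were −0.16, −0.06, −0.38, 0.01 and −0.16, close to 0 on every array. With HIPP they were −2.52, −2.95, −2.48, −2.99 and −2.94, and with P4 −1.92, −1.60, −1.08, −1.70 and −1.48, so that the 3 groups did not overlap. The means were −0.15 ± 0.15, −2.78 ± 0.25 and −1.56 ± 0.31 (SD, n = 5 each) with adjusted p of 0.445, 1.26e-09 and 7.01e-07. TSPAN2 differed between shCtBP2 and HIPP by 2.63 (2.28 to 2.98, adjusted p = 1.71e-07) and between shCtBP2 and P4 by 1.41 (1.06 to 1.76, adjusted p = 8.92e-05).

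Both TSPAN2 probes moved the same way. The probe printed above was above background on every array and had −1.83 ± 0.29 with HIPP and −1.14 ± 0.22 with P4, or 28.0% and 45.3% of control. The other, at chr1:115303050-115303109, was above background on 0 of 5 treated arrays with HIPP, where it was at least 1.47-fold lower, and on 2 of 5 with P4 (−1.97 ± 0.42). The gene's mean with HIPP therefore includes a value that is only a bound. From the brighter probe alone the differences between shCtBP2 and HIPP or P4 were 1.78 and 1.09 (adjusted p = 1.55e-06 and 0.000313). With normexp and loess the gene's ratio was −0.71 with HIPP (adjusted p = 0.000123) and −0.67 with P4 (adjusted p = 0.000347), both under their fold-change thresholds. With slide as a fixed block the difference from P4 was 1.69 (adjusted p = 0.0548).

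Among the broadly expressed tetraspanins, CD82 and CD9 were lower with the inhibitors. CD82, which restrains integrin signalling and migration, had ratios of −1.28, −0.98, −0.81, −0.73 and −1.03 with P4. With HIPP its ratios were −0.61, −1.03, −0.43, −0.66 and −0.91, and in shCtBP2 cells 0.25, −0.11, 0.36, 0.11 and 0.12. Every inhibitor array lay below every shCtBP2 array. The means were −0.97 ± 0.22 with P4 (51.2% of control, adjusted p = 1.49e-05), −0.73 ± 0.24 with HIPP (adjusted p = 4.56e-05, under the 2.5-fold threshold) and 0.15 ± 0.18 in shCtBP2 cells (adjusted p = 0.395). CD82 was higher in shCtBP2 than in HIPP cells by 0.88 (0.56 to 1.19, adjusted p = 0.000468) and than in P4 cells by 1.11 (0.80 to 1.43, adjusted p = 0.00025). The CD82 probe was bright, with control signals of 2278 to 5180 units, and with normexp and loess its P4 ratio was −0.94, still called. With slide as a fixed block the difference from P4 was 1.20 (adjusted p = 0.0966).

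CD9, a partner of integrins and of the immunoglobulin proteins IGSF8 and PTGFRN, varied more. Its ratios were −1.72, −0.66, −0.18, −0.86 and −0.95 with P4 and −0.89, −1.33, −0.18, −1.90 and −0.88 with HIPP. In shCtBP2 cells they were −0.66, −0.33, −0.34, 0.09 and −0.13, overlapping with both inhibitors. Means were −0.87 ± 0.56 with P4 (adjusted p = 0.00701), −1.04 ± 0.63 with HIPP (adjusted p = 0.00109) and −0.27 ± 0.28 in shCtBP2 cells (adjusted p = 0.453). Only the P4 value was called, because its threshold is lower, and without P4 replicate 1 the P4 mean was −0.66 and was not called. With slide as a fixed block the P4 ratio was −1.13 and did not pass the adjusted threshold. The difference between shCtBP2 and HIPP was 0.76 (0.11 to 1.42, adjusted p = 0.0810) and between shCtBP2 and P4 0.60 (−0.05 to 1.25, adjusted p = 0.239).

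CD63, the lysosomal and vesicle tetraspanin, moved the other way. It had ratios of 0.17, 0.39, 0.27, 0.48 and 0.49 in shCtBP2 cells and 0.32, 0.48, 0.84, 0.28 and 0.49 with HIPP, positive on every array of both groups. The means were 0.36 ± 0.14 (adjusted p = 0.0247) and 0.48 ± 0.22 (adjusted p = 0.000861), neither of which reached its fold threshold. In shCtBP2 cells the adjusted p was 0.154 with slide as a fixed block and 0.0501 from the brightest probe, and with background-subtracted signals CD63 was called. The P4 mean was 0.06 ± 0.20 and was removed from testing by the filter on low variability. CD81 had means of −0.30 ± 0.17, −0.18 ± 0.24 and −0.20 ± 0.36 for shCtBP2, HIPP and P4, and CD151, the partner of laminin-binding integrins, −0.10 ± 0.23, −0.17 ± 0.35 and −0.24 ± 0.49. CD81 with HIPP, CD151 in shCtBP2 cells and TSPAN4 in all treatments were removed by the same filter, and none of the tested values of CD81 and CD151 passed (adjusted p 0.129 to 0.399). Of the 7 members grouped as broad partners of integrins and immunoglobulin proteins, 5 were tested in each treatment. Passing the adjusted threshold at any fold change were 1 higher and 1 lower in shCtBP2 cells, 1 higher and 3 lower with HIPP, and 0 higher and 3 lower with P4, beside 13.5%, 48.8% and 31.9% of all genes in either direction.

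**Figure D3:**
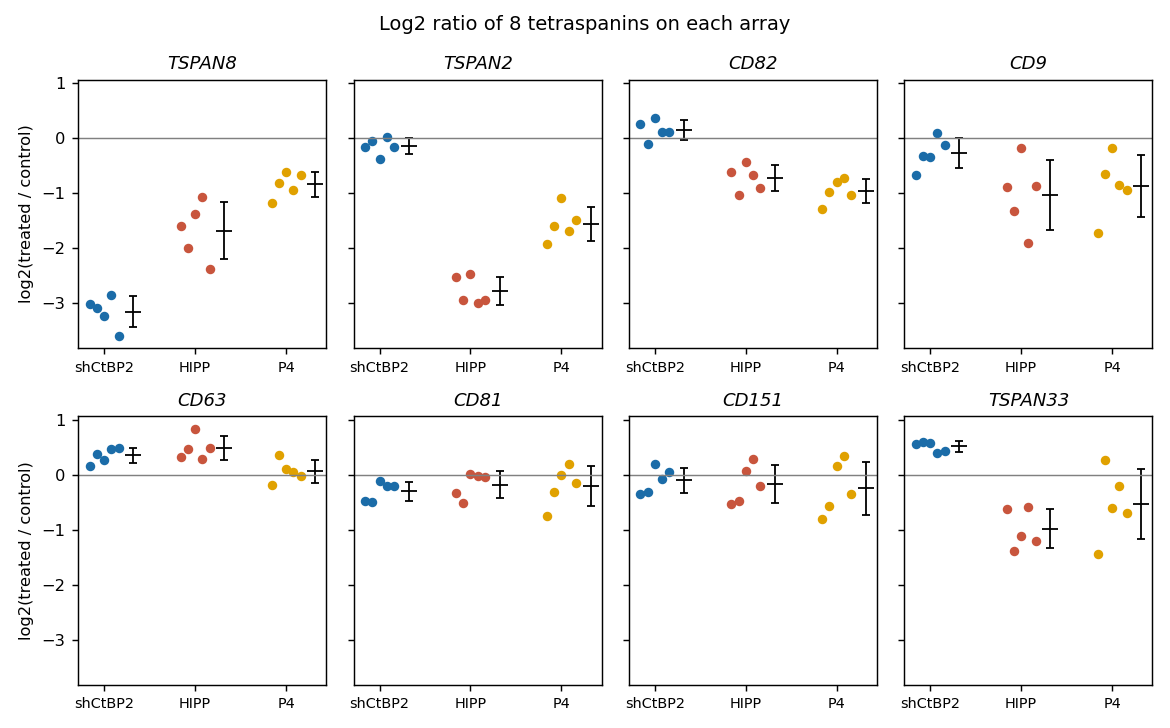
Log2 ratio of treated over control for 8 tetraspanins, with a coloured point per array and, to its right, the mean and SD of the 5 arrays of each treatment. TSPAN8 is lowest in shCtBP2 cells (−3.60 to −2.86), TSPAN2 is lowest with HIPP (−2.99 to −2.48), and CD63, CD81 and CD151 stay within 0.84 of 0 on every array.

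The TspanC8 tetraspanins set the traffic and substrate choice of ADAM10. With HIPP, 3 of 6 passed the adjusted threshold as higher (TSPAN5, TSPAN10 and TSPAN14) and 2 as lower (TSPAN17 and TSPAN33), where 24.9% of all genes were higher and 23.9% lower. With P4, 2 were higher (TSPAN10 and TSPAN14) and 2 were lower (TSPAN17 and TSPAN33), beside 17.1% and 14.9% of all genes, and in shCtBP2 cells 0 of 5 passed. None was called. TSPAN10 had 0.69 ± 0.45 with HIPP and 0.46 ± 0.27 with P4, and TSPAN14 had 0.62 ± 0.32 and 0.59 ± 0.37 over its 3 probes. The only TSPAN14 probe above background on all arrays had 0.35 ± 0.14 with HIPP and 0.25 ± 0.21 with P4.

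TSPAN10 and TSPAN33 differed between shCtBP2 and HIPP. For TSPAN33 the ratios were 0.56, 0.60, 0.59, 0.40 and 0.44 in shCtBP2 cells, −0.62, −1.38, −1.11, −0.58 and −1.20 with HIPP, and −1.45, 0.28, −0.60, −0.20 and −0.69 with P4. On this average of 3 probes all shCtBP2 arrays lay above all inhibitor arrays, but 2 of the probes were above background on 0 of 5 treated arrays with HIPP and with P4. On the brightest probe the arrays ran from 0.09 to 0.50 in shCtBP2 cells, from −0.45 to −0.04 with HIPP and from −0.16 to 0.26 with P4, so shCtBP2 and P4 overlapped. The means of the average were 0.52 ± 0.09 (adjusted p = 0.0743), −0.98 ± 0.36 (adjusted p = 0.000436) and −0.53 ± 0.64 (adjusted p = 0.0371), and the difference between shCtBP2 and HIPP was 1.5 (0.95 to 2.05, adjusted p = 0.000532). From the brightest probe alone the difference was 0.57 for HIPP (adjusted p = 0.00368) and 0.24 for P4 (adjusted p = 0.256, against 1.05 and 0.0158 with all probes), with a P4 ratio of 0.067 in place of −0.53. With slide as a fixed block the difference from P4 was 1.12 (adjusted p = 0.297).

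**Figure D4:**
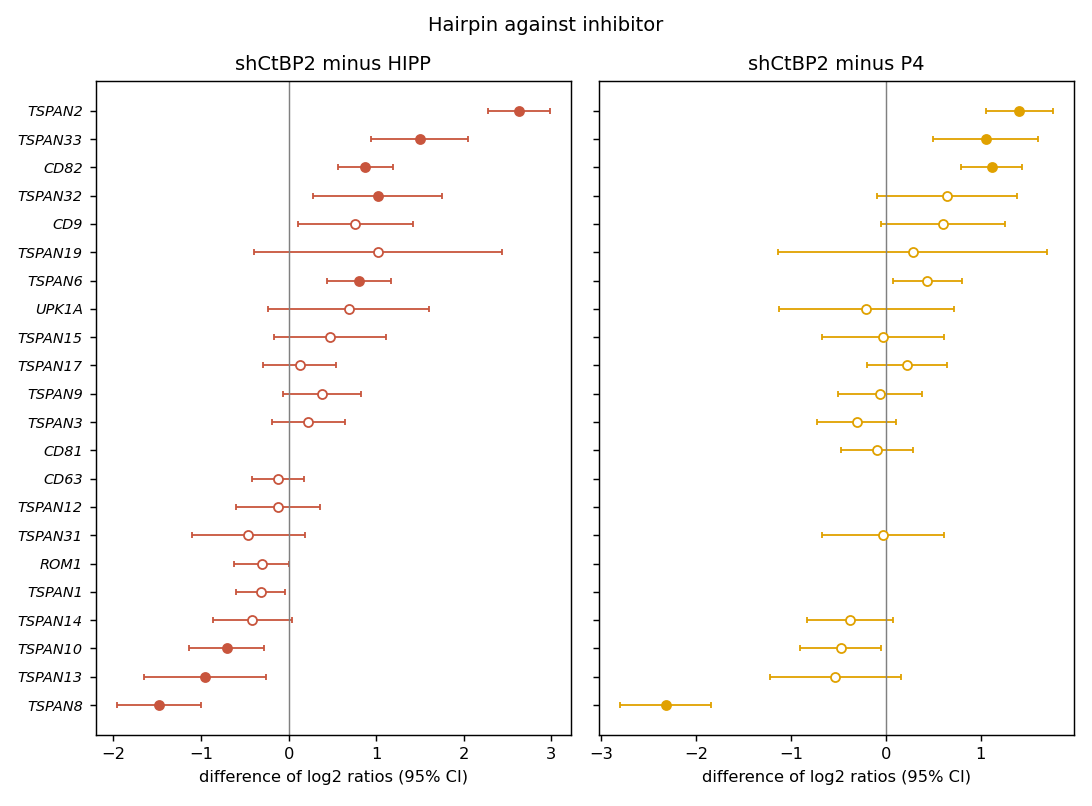
Difference of the log2 ratio between shCtBP2 cells and HIPP cells (left) or P4 cells (right), with the 95% confidence interval from limma, for tetraspanins tested in both groups and above background in a channel of both. Filled points passed the adjusted threshold. TSPAN8 lies furthest below 0 in both panels (−1.48 and −2.32) and TSPAN2 furthest above (2.63 and 1.41).

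Over all members, 9 of 28 tested (32.1%) differed between shCtBP2 and HIPP, against 26.4% of all genes, and 4 of 25 (16%) between shCtBP2 and P4, against 12.1%. TSPAN8, TSPAN2, CD82 and TSPAN33 differed from both inhibitors, which is 4 of 24 members tested in both comparisons (16.7%), beside 9.18% of all genes. The comparisons share the shCtBP2 arrays. The share of all genes was counted in the main fit alone, so counts of differences under a fixed slide block have none beside them. Whether those counts are particular to the members or hold across all genes was not tested. Under a fixed slide block 8 members differed from HIPP and 0 from P4 at the adjusted threshold. Of the 9 members that differed from HIPP, 6 remained, TSPAN7, TSPAN13 and TSPAN32 were lost (adjusted p = 0.226, 0.444 and 0.0799), and TSPAN19 and UPK1A were gained.

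The members called higher were dim genes. TSPAN7, known from neurons, was higher on 5 of 5 arrays of shCtBP2 cells, with treated signals above background on 3 of 5 arrays and control signals on 0. For a bound, mean intensities were taken after normexp with an offset of 50, loess and quantile normalization. Control values under the lowest signal above background were raised to it, which applied to 1 of 5 arrays for TSPAN7. On this scale, where the offset shrinks the ratios of dim probes, TSPAN7 was at least 1.11-fold higher. Its limma adjusted p was 0.00096 on the processed signals and 0.0387 with normexp and loess. TSPAN32, a leukocyte tetraspanin, was also above background on 3 treated and 0 control arrays in shCtBP2 cells and was at least 1.08-fold higher. Its adjusted p was 0.00616 on the processed signals and 0.138 with normexp and loess, the scale of the bound, where it did not pass.

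TSPAN19 had log2 ratios of 1.5, 1.99, 0.95, 1.30 and 2.06 in shCtBP2 cells (mean 1.56 ± 0.47, adjusted p = 0.0387) and 1.28 ± 1.20 with P4 (adjusted p = 0.0496), where its sign was positive on 4 of 5 arrays. It was above background on 2 control and 5 treated arrays in shCtBP2 cells. UPK1A, a uroplakin, had 1.30, 2.00, 0.63, 0.67 and 0.72 with P4 (mean 1.06 ± 0.59, adjusted p = 0.0161), above background on 2 control and 3 treated arrays. TSPAN7 with P4 was called as well, but above background on 0 arrays in either channel, so no ratio is given. In shCtBP2 cells TSPAN19 was no longer called without any 1 of the shCtBP2 arrays or without P4 replicate 5 (1.44 to 1.72, adjusted p up to 0.120), and with P4 it was lost in 12 of the 15 fits that left out 1 array (0.81 to 1.65, adjusted p up to 0.189). UPK1A was not called without P4 replicate 2 (0.83, adjusted p = 0.0677), and TSPAN7 with P4 was not called without P4 replicate 2, 3, 4 or 5.

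With normexp and loess none of these calls of higher members held, and 1 member was called in shCtBP2 cells (TSPAN8), 0 with HIPP and 1 with P4 (CD82). With slide as a fixed block the P4 calls were CD82 and TSPAN2, and the TSPAN19 and UPK1A ratios with P4 were −0.074 and 0.14. In shCtBP2 cells TSPAN7 (adjusted p = 0.0804) and TSPAN32 (adjusted p = 0.0601) were then no longer called, while UPK1A (1.82, adjusted p = 0.0205) and TSPAN31 were called. With background-subtracted signals centred on the array median the P4 calls were CD82, CD9 and TSPAN2, 0 higher and 3 lower, while 39.5% of all P4 calls were higher in place of 50.7%.

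No other member was called on the mean of its probes. Among the members with signal that were not called, log2 ratios ran from −0.30 to 0.86 in shCtBP2 cells, from −1.04 to 0.89 with HIPP and from −0.84 to 0.59 with P4. TSPAN31 was positive on all 15 arrays, as were 4.04% of the genes tested in all treatments, with means of 0.43 ± 0.19, 0.89 ± 0.68 and 0.46 ± 0.52, of which the HIPP value passed (limma adjusted p = 0.0029). TSPAN6 was lower with HIPP at −0.58 ± 0.35 (adjusted p = 0.000965) and TSPAN13 higher at 0.78 ± 0.55 (adjusted p = 0.0110), both under 2.5-fold. TSPAN5 in shCtBP2 cells and ROM1, TSPAN1 and TSPAN12 with P4 were removed by the filter on low variability.

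TSPAN9 was the one member whose probes disagreed in sign beyond their SD. With HIPP the probe at chr12:3265161-3265220, above background on 2 of 5 treated arrays with HIPP and 4 of 5 with P4, had −1.66 ± 0.39 and the probe at chr12:3263040-3263099 had 0.66 ± 0.40, and with P4 they had −1.07 ± 0.70 and 0.96 ± 0.23. In shCtBP2 cells both were near 0, at −0.04 ± 0.18 and −0.19 ± 0.07. The gene's mean of −0.50 ± 0.35 with HIPP (adjusted p = 0.0119) therefore averages a probe that was lower and a probe that was higher. From the brighter probe alone, the one that was higher, TSPAN9 was called with P4 and differed from shCtBP2 cells with both inhibitors.

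Genes whose products bind tetraspanins or resemble them were followed as a list of 48, which holds integrins, ADAM proteases, claudins, immunoglobulin partners, growth factor receptors and ligands, vesicle sorting genes and the TM4SF family. In shCtBP2 cells 5 of 42 tested were called (11.9%, against 6.57% of all genes), 2 higher and 3 lower. With HIPP 6 of 38 were called (15.8%, against 7.04%), 3 higher and 3 lower, and with P4 4 of 42 (9.52%, against 8.46%), 3 higher and 1 lower. PTGFRN, TM4SF18 and TM4SF19 were called with both inhibitors, and UPK3A in shCtBP2 cells and with P4.

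In shCtBP2 cells the lower partners were TGFA, a ligand of the EGF receptor, with log2 ratios of −1.72, −1.72, −1.94, −1.51 and −1.93 (mean −1.76 ± 0.18, adjusted p = 1.30e-07), the tight junction gene CLDN1 (−1.48 ± 0.26, adjusted p = 2.79e-07) and the Wnt coreceptor LRP5 (−0.65 ± 0.08, adjusted p = 0.0142). CLDN7, which forms complexes with EPCAM, CD44 and TSPAN8 in carcinoma cells, was higher at 0.97 ± 0.27 (adjusted p = 0.00172). UPK3A, the uroplakin that pairs with UPK1B, was called higher in shCtBP2 cells (0.86 ± 0.80, above background on 2 arrays in each channel) and with P4 (1.05 ± 0.32).

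With HIPP, CD47, an integrin-associated protein, had ratios of −2.21, −2.55, −1.48, −2.27 and −2.05 (mean −2.11 ± 0.40, adjusted p = 1.77e-08). RAB27A, a small GTPase of vesicle release, was lower at −1.37 ± 0.39 (adjusted p = 3.71e-07), and CD44, the hyaluronan receptor, was higher at 1.40 ± 0.28 (adjusted p = 6.97e-08). PTGFRN, a direct partner of CD9 and CD81, was higher with HIPP at 1.45 ± 0.17 and with P4 at 1.33 ± 0.62 (adjusted p = 7.77e-06 and 7.46e-05). The tetraspan genes TM4SF18 and TM4SF19, which belong to a separate family, moved in opposite directions, with TM4SF18 at −1.92 ± 0.44 and −1.17 ± 0.56 and TM4SF19 at 1.77 ± 0.17 and 1.23 ± 0.25 with HIPP and P4. ADAM10 was tested in shCtBP2 cells (0.04 ± 0.10, adjusted p = 0.857) and with P4 (0.64 ± 0.33, adjusted p = 0.000704) and was not called, and with HIPP (0.54 ± 0.22) it was removed from testing by the filter on low variability.

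With normexp and loess the partner calls that held were TGFA and CLDN7 in shCtBP2 cells, CD44, TM4SF18 and TM4SF19 with HIPP, and TM4SF18 and TM4SF19 with P4. The calls of CLDN1, LRP5, CD47, RAB27A, PTGFRN and UPK3A were lost, and ITGA6 with P4 was gained. Under a fixed slide block UPK3A in shCtBP2 cells and PTGFRN with P4 were lost. Gained under that block were IFITM1 in shCtBP2 cells and HBEGF, ITGA6 and RAB27A with P4.

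**Figure D5:**
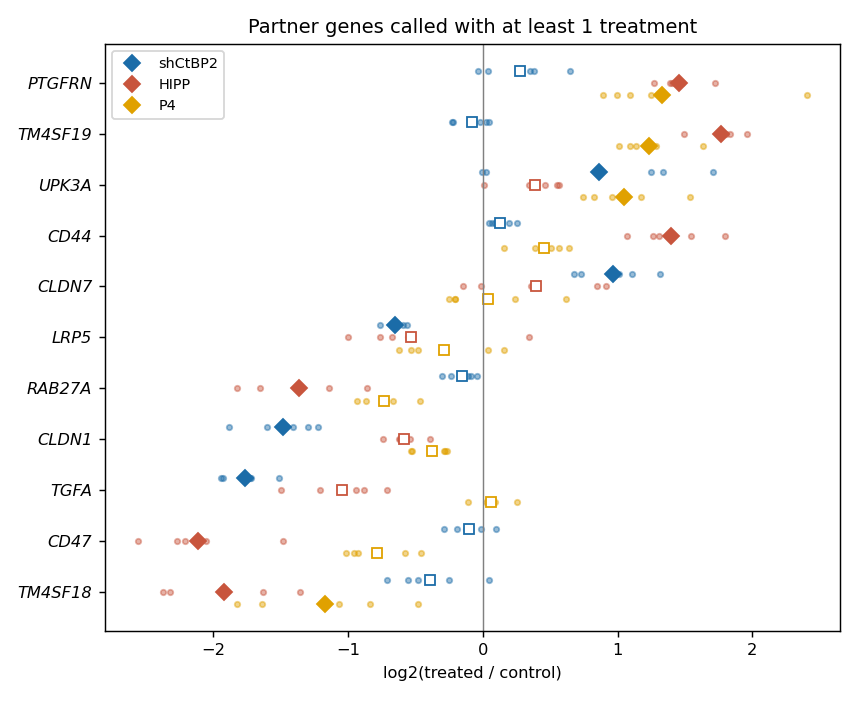
Log2 ratio of treated over control for the 11 partner genes called with at least 1 treatment, with a small point per array and a large symbol for the mean of 5 arrays (filled diamond where called, open square where not). TGFA and CLDN1 lie lowest in shCtBP2 cells (means −1.76 and −1.48), and CD47 and TM4SF18 lie lowest with HIPP (−2.11 and −1.92).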

How the data were processed

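RNA of MDA-MB231 cells was measured on 15 Agilent 4x44K human arrays. The authors scanned them, subtracted background and corrected dye bias with Feature Extraction (version 9.5 in the methods), and deposited signal intensities per spot and log10 ratios of Cy5 over Cy3. The deposited value table equalled these log10 ratios to its printed digits, with array medians of 0; 87.4% of them were the log10 of the processed signal ratio and the others were 0. Probe positions are those of the array annotation (hg17).

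The ratio of processed Cy5 to Cy3 signal was put on the log2 scale for each spot, 78 to 265 outlier spots per array were left out, spots were averaged per probe and probes per gene, and names were updated through RefSeq accessions. Genes measured on at least 3 of 5 arrays were kept, and the 11% with the lowest interquartile range were removed per treatment, after the methods' own filter, leaving 27580. All 15 arrays were fitted together with limma 3.58.1 in R 4.3.3, with Benjamini-Hochberg adjustment over all genes tested. Where 1 channel of a called gene, or of a TSPAN2 probe, was above background on 0 of the 5 arrays of a treatment, a lower bound is given. Fits were tested on simulated data. Members, partner genes and rules were chosen with earlier results of these data known. Named were TSPAN8, CD9, CD63, CD81, CD82, CD151, every called member and partner, members removed by a filter, and members with disagreeing probes; TSPAN6, TSPAN10, TSPAN13, TSPAN14, TSPAN17, TSPAN31, TSPAN33 and ADAM10 were added after their values were seen. The labels do not say that arrays came from separate cultures, so p-values measure the spread between arrays, and the number of arrays limits precision. No spot was saturated. A ratio against 0 can hold a dye effect and leaves out the spread between controls if 1 control extract was shared. Alternatives were other background and dye corrections, slide and replicate blocks, each treatment alone, filters, the brightest probe, the methods' t-test, other fold-change thresholds and leaving out each array. Some marker genes are not reported here.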

Additional observations from a re-analysis of the deposited data

Results flagged for a closer look

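TSPAN8, TSPAN2, CD82 and TSPAN33 stood out because the means of their probes differed between shCtBP2 cells and both inhibitors by the test of the difference. For shCtBP2 minus HIPP the log2 differences were −1.48 for TSPAN8, 2.63 for TSPAN2, 0.88 for CD82 and 1.5 for TSPAN33. For shCtBP2 minus P4 they were −2.32, 1.41, 1.11 and 1.05, and none of these passed with slide as a fixed block. The TSPAN2 and TSPAN33 values include probes that were above background on 0 of 5 treated HIPP arrays. From the brightest probe the TSPAN2 differences were 1.78 and 1.09, and those of TSPAN33 were 0.57 and, for P4, 0.24, which did not pass (adjusted p = 0.256). The other 5 members that differed between shCtBP2 and HIPP were TSPAN6 (0.80, adjusted p = 0.0024), TSPAN10 (−0.71, adjusted p = 0.0166), TSPAN13 (−0.95, adjusted p = 0.0420), TSPAN32 and TSPAN7. No difference is given for the last pair, whose control channel was not well above background on any shCtBP2 array. TSPAN7, TSPAN13 and TSPAN32 no longer passed with slide as a fixed block (adjusted p = 0.226, 0.444 and 0.0799). The TSPAN13 and TSPAN32 differences were each lost in 9 of the 15 fits that left out 1 array.

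In 2 groups of 5 arrays, 1 array lay far from the other 4. TSPAN32 was −0.63 on HIPP replicate 4, where the others lay between 0.27 and 0.48, and −0.14 on P4 replicate 2, where the others lay between 0.58 and 0.76. Of 76 groups examined, chance flags about 1 in 20, or 3.8.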

How the results depend on the processing

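TSPAN8 kept its direction under every alternative run in all 3 treatments, and its shCtBP2 call held under each. With normexp and loess the members called fell to 1, 0 and 1 for shCtBP2, HIPP and P4 and the partner genes called to 2 and 3 for shCtBP2 and HIPP, TSPAN8 with HIPP was −0.57 and not called, the members that differed from HIPP numbered 5, and the TSPAN8 differences were −0.41 and −0.53 and did not pass; the offset raises both channels of dim probes. All genes called then numbered 269, 279 and 586. The P4 members called numbered 3 with background-subtracted signals (beside 9.01% of all genes) and 2 with slide as a fixed block (9.07%). They numbered 2 with the methods' t-test after Benjamini-Hochberg adjustment (3.23%) and 11 at the adjusted p alone (31.9%). HIPP members numbered 10 of 30 at 1.5-fold (with TSPAN18, which was not above background on any array), where 32.6% of all genes were called, and 16 at the adjusted p alone, beside 48.8%. TSPAN8 with P4 was called at 1.5-fold and at the adjusted p alone (−0.84), and ranged from −0.90 to −0.76 when 1 array was left out. With slide as a fixed block, which sets P4 against the others through 1 P4 array, 0 members differed from P4 (TSPAN8 −2.33, not passing). Under this block the sign turned for TSPAN2 in shCtBP2 cells (0.0093) and for TSPAN32 and UPK1A with HIPP (−0.031 and −0.20). With P4 the sign turned for CD81, CD63 and TSPAN19 (0.033, −0.042 and −0.074). It also turned for UPK1A with HIPP under normexp (−0.024) and for TSPAN33 with P4 from the brightest probe or without dim probes (0.067), and for CD63 with P4 from the brightest probe (−0.024). The cause was not tested. Leaving out each array gave 3 to 4, 2 and 4 to 6 members called, beside 4.71% to 6.97%, 6.28% to 8.09% and 7.6% to 10.2% of all genes. The members that differed numbered 7 to 10 and 3 to 5, and for differences the share of all genes was counted in the main fit alone. CD82, TSPAN2 and TSPAN6 each fell to the variability filter in 1 of these fits. The labels give no shared source for replicate numbers, which were not taken as pairs because 13 and not all of the 15 same-numbered pairs correlated above 0.1 (r from −0.0276 to 0.472). The best match among the 5 arrays of another treatment had the same number in 13 of 30 cases. This is more often than a random choice among 5 would give, and is a hint from the data and not the design. With the replicate block the members called numbered 5 (with UPK1A added), 2 and 6, beside 8.05%, 7.04% and 8.81% of all genes. The partners called then numbered 5, 6 and 4, and the members that differed 10 and 5. The partner block, and the brightest-probe and dim-probe filters for differences, were added after seeing the data.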
